A study of Mus musculus with 4 samples.

Results

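The pancreatic lipases and their cofactor colipase were followed here through 5 genes chosen by symbol, Pnlip, Pnliprp1, Pnliprp2, Cel and Clps, out of 31053 genes in the deposited matrices. All 5 were found, and all 5 had UMIs (unique molecular identifiers, counts of captured RNA molecules) in acinar cells of every library. The mice were wild-type C57BL/6, and pancreas was taken in 4 groups: caerulein with 2 days of recovery (C2D), saline with 2 days (S2D), caerulein with 6 weeks (C6W) and saline with 6 weeks (S6W). Caerulein is a peptide related to cholecystokinin and in excess causes pancreatitis. In all 4 groups the tissue was made into a cell suspension, the cells that excluded DAPI, a dye that enters dead cells, were sorted, and 3′ RNA was read on the 10x Genomics platform. Each group was 1 library, and the labels do not say how many animals it held. No difference could therefore be set against the spread between animals, and the intervals below, all at 95%, cover counting error only. Age and sex of the mice are not given in the sources used here.

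Acinar cells make the fat-digesting enzymes of the gut and release them, with the other digestive proteins, into the pancreatic duct. Pnlip encodes pancreatic triglyceride lipase, which splits dietary triglycerides in the intestine; bile salts keep it off the fat droplet unless colipase, the small non-enzymatic protein encoded by Clps, anchors it there. Pnliprp1 and Pnliprp2 encode relatives of that lipase: the Pnliprp1 protein has shown little lipase activity, whereas the Pnliprp2 protein also splits galactolipids and serves fat digestion in suckling mice. Cel encodes carboxyl ester lipase, a bile-salt-dependent enzyme of another family that takes cholesterol esters and a broad range of lipid esters.

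In GRCm38 (mm10; GENCODE vM21) the 3 related lipase genes lie in a row on the plus strand of chromosome 19: Pnlip (ENSMUSG00000046008) at chr19:58652498-58681788, Pnliprp1 (ENSMUSG00000042179) at chr19:58728887-58744169 and Pnliprp2 (ENSMUSG00000025091) at chr19:58759719-58777534, a span of 125 kb. Their main transcripts hold 13, 13 and 12 exons and 1487, 1619 and 1572 bases. Aligned end to end, Pnliprp1 and Pnlip transcripts are identical at 68.0% of aligned bases, Pnliprp2 and Pnlip at 67.8%, and Pnliprp2 and Pnliprp1 at 64.7%. The longest run of bases that any pair of the 3 shares is 23 (Pnliprp1 and Pnlip). A transcribed pseudogene between them, 1810018F18Rik, shares at most 29 bases in a row with Pnlip and was not analysed here. Cel (ENSMUSG00000026818) lies on the minus strand at chr2:28555795-28563403, with 11 exons and the longest main transcript of the 5, 2063 bases; the antisense gene Gm13381 overlaps it, and reads of the 2 could not be told apart if they were counted without strand. Clps (ENSMUSG00000024225) lies on the minus strand at chr17:28558149-28560766, with 3 exons and the shortest transcript, 611 bases; the microRNA gene Mir6969 lies inside it.

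The 250 bases before the start of 4 of the genes are shown because neighbours on chromosome 19 had different levels after caerulein. They come from RefSeq (GRCm38.p6), each 5′ to 3′ on the strand of its gene, with motif matches in capitals. The motifs searched, on both strands, were the E-box CANNTG and the box TGGGAA, which in spaced pairs are bound by the acinar factor PTF1, the nuclear receptor letters AAGGTCA, and TATAAA.
Pnlip, chr19:58670115-58670364: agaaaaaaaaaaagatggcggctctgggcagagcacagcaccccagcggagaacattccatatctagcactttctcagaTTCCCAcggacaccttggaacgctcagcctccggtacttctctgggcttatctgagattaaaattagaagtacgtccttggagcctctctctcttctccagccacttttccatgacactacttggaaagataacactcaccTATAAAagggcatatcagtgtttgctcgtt
Pnliprp1, chr19:58728637-58728886: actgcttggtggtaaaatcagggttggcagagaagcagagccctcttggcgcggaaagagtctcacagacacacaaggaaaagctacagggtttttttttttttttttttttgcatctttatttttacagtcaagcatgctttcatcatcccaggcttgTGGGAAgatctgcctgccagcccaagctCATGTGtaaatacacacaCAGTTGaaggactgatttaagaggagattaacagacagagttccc
Pnliprp2, chr19:58759473-58759722: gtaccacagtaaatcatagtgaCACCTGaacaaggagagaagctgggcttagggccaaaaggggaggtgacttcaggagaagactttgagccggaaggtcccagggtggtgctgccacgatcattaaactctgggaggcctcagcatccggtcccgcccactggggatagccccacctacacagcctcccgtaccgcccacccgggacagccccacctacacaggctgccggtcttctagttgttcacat
Cel, chr2:28563404-28563653: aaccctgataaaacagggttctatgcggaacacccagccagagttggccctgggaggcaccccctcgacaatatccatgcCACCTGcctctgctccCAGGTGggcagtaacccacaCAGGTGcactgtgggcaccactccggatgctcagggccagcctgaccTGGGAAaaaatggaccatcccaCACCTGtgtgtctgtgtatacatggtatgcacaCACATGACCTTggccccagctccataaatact
An E-box stands in 3 of these 4 windows (5 matches for Cel, 2 for Pnliprp1, 1 for Pnliprp2, none in Pnlip), and in 66.2% of all 32851 promoter windows of that length. TGGGAA or its reverse complement stands in 3 of 4 (Pnlip, Pnliprp1 and Cel) and in 21.6% of all windows. AAGGTCA is in the Cel window, overlapping its last E-box, and in 4.08% of all windows, and TATAAA is in the Pnlip window, 30 bases before the start, and in 12.4%. The Pnlip window lies before the start of its main transcript, inside the longer span annotated for the gene. These letters describe the windows and were not set against the expression values.

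The libraries held 71547194 UMIs (C2D), 36914373 (S2D), 33788935 (C6W) and 29145886 (S6W), and any pair of libraries shared between 3 and 22 barcodes. Acinar-like cells, named by markers that include none of the 5 genes, numbered 790 of 4637 cells in C2D, 422 of 3308 in S2D, 361 of 2741 in C6W and 449 of 2017 in S6W, and all 15 acinar markers had UMIs in each. The C2D cells stood apart from the rest: 465 lay in a cluster led by Reg3b, 321 in a cluster with the keratins Krt18 and Krt8 among its leading genes, and 4 in the cluster that held 98.7 to 99.5% of the acinar-like cells of each other library. Their median was 1182 genes per cell in C2D, against 447 in S2D, 536 in C6W and 519 in S6W, and the median UMIs per cell were 8560.5 in C2D, 6624.5 in S2D, 6791 in C6W and 7743 in S6W. The median share of a cell's UMIs that came from the 5 members and 33 other listed digestive genes was 44.7% in C2D, against 86.5% in S2D, 81.9% in C6W and 84.3% in S6W, and mitochondrial genes took 0.0300% in C2D, 0.213% in S2D, 0.274% in C6W and 0.165% in S6W. Ductal markers summed to 603 CPM (UMIs scaled to a common total per class and library) in C2D acinar-like cells, against 76.7 in S2D, 154 in C6W and 86.3 in S6W, and macrophage markers to 131 CPM in C2D, against 9.20 in S2D, 10.8 in C6W and 6.28 in S6W. All 10 ductal and 13 macrophage markers had UMIs in C2D, against 8 of 10 and 8 of 13 in S2D. Fibroblast markers summed to 81.3 CPM in C2D, 24.1 in S2D, 103 in C6W and 34.9 in S6W. On the CPM scale the median log2 ratio of 5125 compared genes in C2D over S2D was 2.65. A larger marker sum in C2D is therefore not by itself particular to these markers. What the differences between libraries contribute to the values below was not tested.

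At 2 days after caerulein, lipase and colipase RNA was lower in acinar-like cells, and unevenly so. In summed UMIs Pnlip was lowest relative to saline, Cel next, and Pnliprp1 closest to its saline level. Pnliprp1 outnumbered Pnlip, the reverse of the other 3 libraries. Together the 5 genes gave 552 UMIs per acinar-like cell (551 to 554) in C2D, against 1761 (1757 to 1765) in S2D. All 5 members had lower UMIs per cell in C2D. After 6 weeks the sum was 1527 UMIs per cell (1523 to 1531) in C6W, against 2629 (2624 to 2634) in S6W, and the 5 genes were close to their saline proportions, apart from a higher share of Clps and a lower share of Cel.

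Pnlip, the main triglyceride lipase, averaged 41.1 UMIs per acinar-like cell (40.6 to 41.5) in C2D, against 793 (790 to 796) in S2D, and 573 (570 to 575) in C6W, against 1218 (1214 to 1221) in S6W. The median cell held 9 Pnlip UMIs in C2D and 353 in S2D, and 348 in C6W and 466 in S6W. C2D thus stood far below the other 3 libraries, while C6W lay under S6W and S2D in the mean but beside S2D in the median. A Pnlip UMI was found in 79.2% of C2D acinar-like cells (76.2 to 82.0%, Clopper-Pearson), against all 422 cells of S2D. With every cell thinned to 1000 UMIs, which left out 38 C2D and 7 S2D cells, the shares were 57.7% in C2D and 100% in S2D. In C2D macrophage-like cells, which do not make the enzyme, the thinned share was 3.80%; unthinned it was 20.1%, at a median of 14322 UMIs per cell. Thinned shares in other C2D classes were 4.21% in T-like, 1.54% in fibroblast-like and 0.562% in ductal-like cells. Macrophage-like cells averaged 1.01 Pnlip UMIs in C2D, against 0.274 in T-like cells. A cluster of 43 of them had acinar as its second-highest marker score (2.84), and its part in these values was not tested.

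Clps, which encodes the cofactor that lets this lipase act, averaged 253 UMIs per acinar-like cell (251 to 254) in C2D, against 488 (486 to 490) in S2D, and 621 (619 to 624) in C6W, against 778 (775 to 780) in S6W. It was the most abundant of the 5 by UMIs in C2D and C6W, and second to Pnlip in S2D and S6W. UMIs count 3′ ends and are not scaled to transcript length. The ratio of Clps to Pnlip UMIs was 6.15 (6.08 to 6.22) in C2D, against 0.615 (0.612 to 0.618) in S2D, and 1.08 (1.08 to 1.09) in C6W, against 0.639 (0.636 to 0.641) in S6W. In summed UMIs Clps was therefore in excess of Pnlip in C2D, near parity in C6W and below it in both saline libraries. Cell by cell, Clps exceeded Pnlip in 92.0% of cells in C2D, against 24.6% in S2D, and in 69.8% in C6W, against 45.4% in S6W. Medians of Clps per cell were 115 in C2D and 125.5 in S2D, so at 2 days the typical cell of the 2 libraries differed less than the mean did; they were 514 in C6W and 450 in S6W, where the order is the reverse of that of the means.

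Pnliprp1, the relative with little lipase activity, averaged 208 UMIs per cell (207 to 209) in C2D, against 258 (257 to 260) in S2D, and 204 (203 to 206) in C6W, against 310 (308 to 311) in S6W. Its mean in C2D lay in the range of the other libraries, next to that of C6W. Its median was lowest in C2D, at 132, against 152 in S2D, 140 in C6W and 169 in S6W. Pnliprp2, the galactolipid-splitting relative, was the least abundant in every library, with 19.6 UMIs per cell (19.3 to 19.9) in C2D, against 46.1 (45.5 to 46.8) in S2D, and 34.5 (33.9 to 35.1) in C6W, against 57.2 (56.5 to 57.9) in S6W. Cel, the carboxyl ester lipase, averaged 31.7 UMIs per cell (31.3 to 32.1) in C2D, against 176 (174 to 177) in S2D, and 93.9 (92.9 to 94.9) in C6W, against 267 (265 to 268) in S6W. By mean, both genes were lowest in C2D and highest in S6W. The median of Cel was 80 in S2D and 79 in S6W. Means lay above medians for every gene, since a few cells held very many UMIs; the highest single cell had 1888 Pnlip UMIs in C2D, 23171 in S2D, 16111 in C6W and 28379 in S6W.

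**Figure D1:**
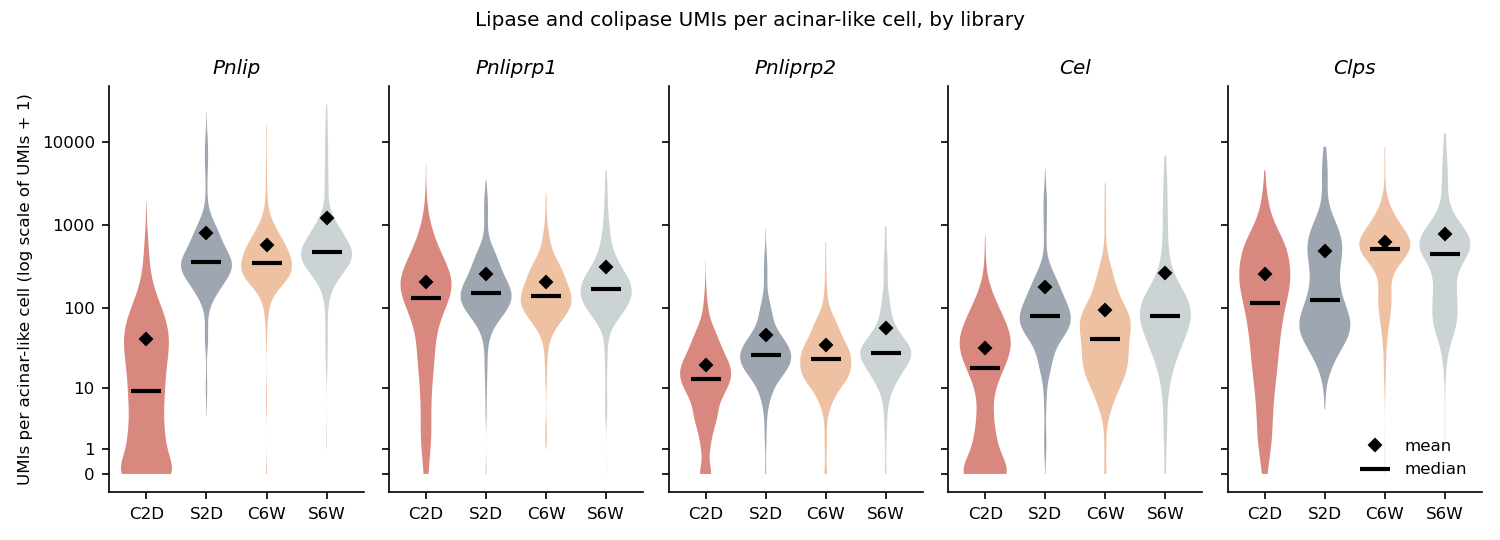
UMIs of each gene per acinar-like cell (log scale of UMIs + 1) in C2D (790 cells), S2D (422), C6W (361) and S6W (449); shapes show the spread over cells, diamonds the mean and bars the median. Pnlip in C2D has a median of 9 UMIs and many cells at 0, against a median of 353 in S2D, while the Pnliprp1 shapes of the 4 libraries overlap.

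To compare libraries, the UMIs of each gene were summed over acinar-like cells and divided by TMM-adjusted totals, which assume that most genes are alike in both libraries, and a gene was called lower or higher at a log2 ratio of -1 or 1 or beyond. In C2D over S2D all 5 members were called lower, where 12.3% of the 5125 genes with at least 100 UMIs were, and none was called higher, where 22.8% were. The median log2 ratio of the members was -3.64, that of Pnliprp2 (-3.68 to -3.61), where the median of all compared genes was 0.22. Pnlip had a log2 ratio of -6.68 (-6.70 to -6.67), a 103-fold lower level, Cel -4.88 (-4.91 to -4.86), Clps -3.36 (-3.37 to -3.35) and Pnliprp1 -2.73 (-2.74 to -2.72). The sum of the 5 had a log2 ratio of -4.08, 17.0-fold lower. The interval of each of the 5 was separate from that of every other.

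These sizes depend on the scaling, because digestive genes made up most of the UMIs in S2D and a smaller part in C2D. Under plain CPM, which divides by all UMIs of the acinar-like cells, the median of all genes moved to 2.65 and 3 of the 5 members were called lower, where 0.956% of genes were: Pnlip at -4.25, Cel at -2.45 and Pnliprp2 at -1.22. By UMIs per cell the same 3 were, where 0.976% of genes were. Clps at -0.93 and Pnliprp1 at -0.30 were lower by less than 2-fold. The order of the 5, from Pnlip through Cel, Pnliprp2 and Clps to Pnliprp1, is the same under every scaling, since a scaling moves all of them by 1 amount. Pnlip, Cel and Pnliprp2 were at least 2-fold lower, and Clps and Pnliprp1 lower, under each of TMM, DESeq2 size factors, totals without digestive genes, plain CPM and UMIs per cell. Under TMM the summed log2 ratio was -3.38 with doublets kept and -2.96 with cells thinned to 1000 UMIs.

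**Figure D2:**
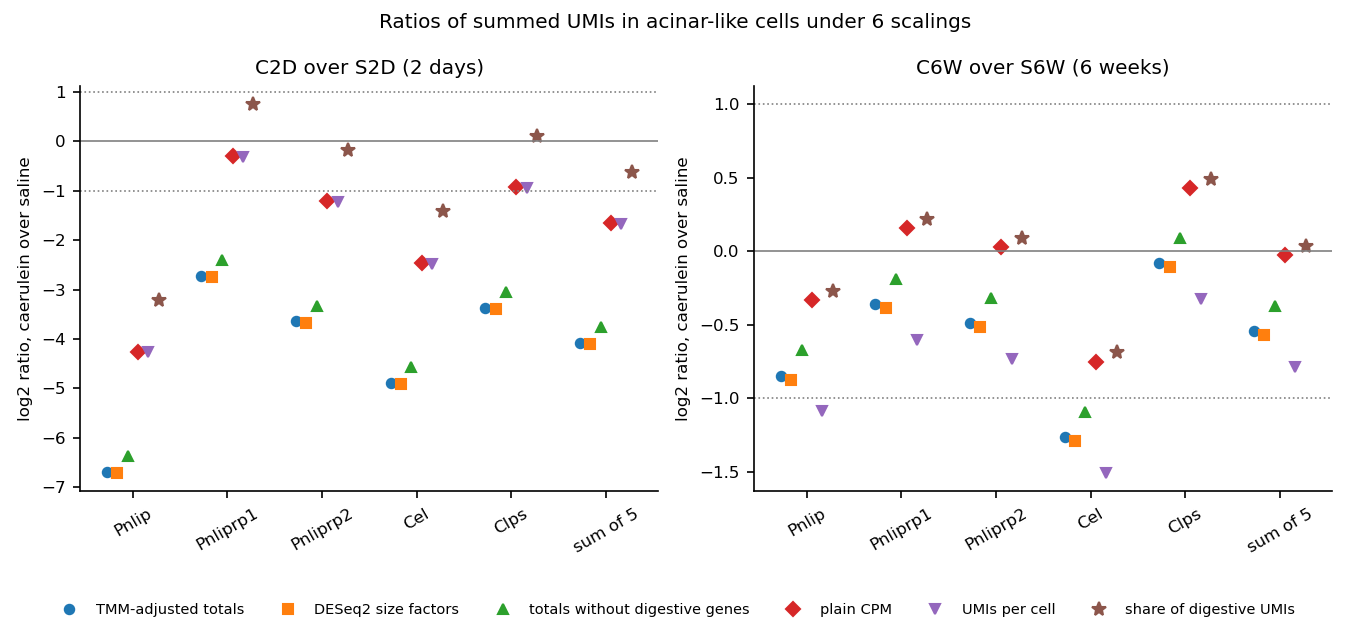
Log2 ratio of C2D over S2D (left) and of C6W over S6W (right; the vertical scales differ) for each gene and their sum, under 6 scalings, with dotted lines at -1 and 1. At 2 days Pnlip lies lowest under each scaling and Pnliprp1 highest; at 6 weeks Cel lies lowest and Clps highest.

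A measure free of such totals is the share of a gene in the UMIs of all 38 digestive genes. The 5 members together made up 10.3% of digestive UMIs in C2D acinar-like cells, against 15.8% in S2D, and 17.9% in C6W, against 17.5% in S6W; the log2 ratios of these shares were -0.61 (-0.62 to -0.60) at 2 days and 0.04 (0.03 to 0.04) at 6 weeks. Pnlip made up 0.769% (0.761 to 0.778%) in C2D, against 7.11% (7.09 to 7.14%) in S2D, and 6.72% in C6W, against 8.10% in S6W. Cel made up 0.593% in C2D, against 1.58% in S2D, and 1.10% in C6W, against 1.77% in S6W. Both enzymes thus took less of the digestive RNA in C2D, Pnlip by 9.25-fold and Cel by 2.66-fold. Pnliprp1 took more, 3.89% (3.87 to 3.91%) in C2D against 2.31% (2.30 to 2.33%) in S2D, with 2.40% in C6W against 2.06% in S6W. Clps was at 4.73% in C2D and 4.37% in S2D, a log2 ratio of 0.11 (0.10 to 0.12), and at 7.29% in C6W and 5.17% in S6W. The 2-day ratio of Clps joins C2D clusters that lie on opposite sides of S2D: it was 0.31 with the Reg3b cluster alone and -0.96 with the keratin cluster alone. Pnliprp2 kept to a narrow range of shares: 0.368% in C2D against 0.414% in S2D, and 0.405% in C6W against 0.38% in S6W. For scale, the shares of the saline libraries (S6W over S2D) had log2 ratios of 0.19 for Pnlip, -0.17 for Pnliprp1, -0.12 for Pnliprp2, 0.17 for Cel and 0.24 for Clps. The 2-day ratios of Pnlip (-3.21), Cel (-1.41) and Pnliprp1 (0.75) were larger in size than these, that of Clps was smaller than its own, and that of Pnliprp2 (-0.17) was close to its own. At 6 weeks Clps (0.50) and Cel (-0.69) were larger in size than their saline ratios, and Pnlip (-0.27), Pnliprp1 (0.22) and Pnliprp2 (0.09) were of about the same size as theirs.

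Pnliprp1 and Pnlip stood in reversed order in C2D. Pnliprp1 gave 5.05 UMIs for each Pnlip UMI in C2D acinar-like cells (4.99 to 5.11), against 0.325 (0.323 to 0.328) in S2D, and 0.356 (0.353 to 0.359) in C6W, against 0.254 (0.253 to 0.256) in S6W. Cell by cell, Pnliprp1 exceeded Pnlip in 715 of 790 C2D cells, which is 90.5% (88.2 to 92.5%), against 8 of 422 S2D cells, and in 11 of 361 C6W cells, against 4 of 449 S6W cells. With cells thinned to 1000 UMIs the shares were 87.0% in C2D and 4.10% in S2D, and 3.93% in C6W and 0.227% in S6W. Nearly every acinar-like cell of C2D therefore had the reversed order, and nearly no cell of the other 3 libraries did. The order was the same in both large C2D clusters: Pnliprp1 exceeded Pnlip in 92.3% of cells of the cluster led by Reg3b and in 89.1% of the cluster with Krt18 and Krt8. Cel exceeded Pnlip in 335 of 790 C2D cells, against 0 of 422 S2D cells (0 to 0.870%). Pnliprp2 exceeded Pnlip in 411 C2D cells, against 0 in S2D with the same interval.

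**Figure D3:**
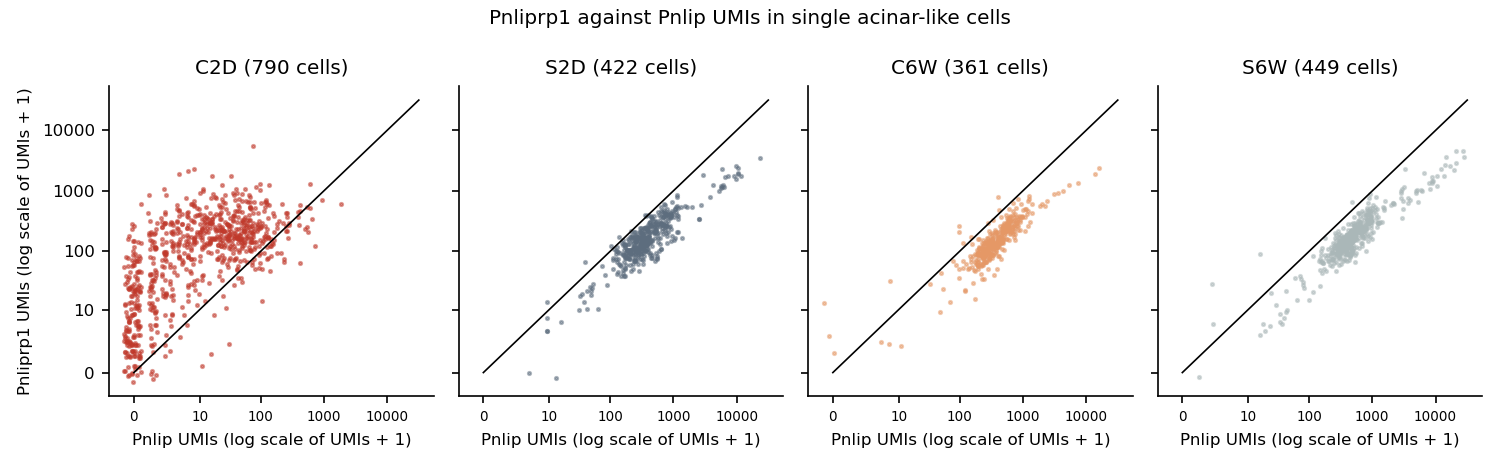
Pnliprp1 UMIs against Pnlip UMIs in single acinar-like cells of each library (log scales of UMIs + 1, points jittered by up to 0.3 UMI; the line marks equal UMIs). C2D points lie above the line in 715 of 790 cells, and points of the other libraries run along a band below it.

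The 5 genes also differed between the C2D clusters. In the cluster led by Reg3b (465 cells) Pnlip averaged 58.1 UMIs per cell, Clps 376, Pnliprp1 287, Cel 49.1 and Pnliprp2 24.2. In the cluster with Krt18 and Krt8 (321 cells) Pnlip averaged 8.59, Clps 66.8, Pnliprp1 92.2, Cel 4.5 and Pnliprp2 12.9. All 5 were lower there, Cel and Pnlip by the largest factors and Pnliprp2 by the smallest. The 4 C2D cells that clustered with the saline cells averaged 663 Pnlip UMIs, and Pnliprp1 exceeded Pnlip in 0 of them. As shares of digestive UMIs, Pnlip stood at 0.840%, Cel at 0.709%, Clps at 5.44%, Pnliprp1 at 4.15% and Pnliprp2 at 0.349% in the Reg3b cluster. In the keratin cluster Pnlip stood at 0.289%, Cel at 0.152%, Clps at 2.25%, Pnliprp1 at 3.11% and Pnliprp2 at 0.434%, so that the Pnliprp2 share alone was higher there. The keratin cluster had Krt19, a duct marker, in 83.2% of cells, against 43.2% in the Reg3b cluster, and digestive UMIs at a median of 20.1% of a cell, against 55.4%. At 1000 UMIs per cell, 23.5% of its cells had a Pnlip UMI, against 78.8% in the Reg3b cluster; C2D macrophage-like cells had 3.80%. Since clusters were made from the same cells and genes, these values describe the clusters and are no test between them. With only the Reg3b cluster for C2D, the summed log2 ratio over S2D was -2.81 and that of the share of digestive UMIs -0.46; with only the keratin cluster they were -6.33 and -1.34.

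At 6 weeks, 1 of 5 members was called lower in C6W over S6W, where 1.16% of 1471 genes were: Cel, with a log2 ratio of -1.26 (-1.28 to -1.25). None was called higher, where 1.9% were. Pnlip had -0.84, Pnliprp2 -0.49, Pnliprp1 -0.36 and Clps -0.08, with a median of -0.49, against -0.20 for all compared genes. Under plain CPM no member was called lower, where 0.272% of genes were, and Clps stood at 0.43, Pnliprp1 at 0.16 and Pnliprp2 at 0.03, above 0, while Pnlip stood at -0.33 and Cel at -0.75. The median of all genes was 0.31 on that scale, so Pnliprp1 and Pnliprp2 lay below it, and Clps above it. A scaling moves the genes and their median alike, so these places are the same under TMM by construction. Pnlip and Cel were below 0 under each of the 6 scalings. By UMIs per cell, where 5.44% of genes were called lower, Pnlip was called as well, at -1.09, and likewise under TMM with doublets kept, at -1.05, where 3.0% of genes were. With S2D, the library that also served for C2D, as the control of C6W, 1 member was called lower, where 2.37% of genes were, again Cel at -1.08, and none higher, where 1.39% were; Pnlip was at -0.64 and Clps at 0.18. Between the saline libraries (S6W over S2D) no member was called lower, where 1.05% of genes were, or higher, where 0.917% were, and the 5 lay between -0.13 and 0.28.

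The 6-week libraries differed most in the balance of Clps and Cel, and so did the cells within each library. Clps gave 6.62 UMIs for each Cel UMI (6.54 to 6.70) in C6W, against 2.92 (2.90 to 2.93) in S6W, and 7.97 (7.87 to 8.08) in C2D, against 2.78 (2.75 to 2.80) in S2D. The median acinar-like cell had 8.79% of its digestive UMIs from Clps in C6W, against 6.41% in S6W, and 3.09% in C2D, against 2.42% in S2D. From the 5th to the 95th percentile of cells this share ran from 1.29 to 16.3% in C6W, from 1.21 to 13.4% in S6W, from 0.420 to 13.6% in C2D and from 0.923 to 12.0% in S2D. The spread among cells of 1 library was therefore wider than the gap between any pair of libraries. Pnlip ran from 3.98 to 9.01% in C6W, from 5.06 to 10.3% in S6W and from 4.15 to 8.79% in S2D, a narrower range than Clps, whereas in C2D it ran from 0 to 2.22% around a median of 0.24%.

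Cells rich in Clps were poor in Cel in 3 of the 4 libraries. Over acinar-like cells, with both genes taken over the UMIs of the other 33 digestive genes, Spearman's rho between Clps and Cel was -0.709 in C6W (361 cells) and -0.792 in S6W (449), and 0.583 in C2D (790), against -0.649 in S2D (422); cells of 1 library share its depth and preparation and both values share a denominator, so these describe the libraries. C2D had the opposite sign. Cells above the median Clps share of their library had Cel at 0.506% of digestive UMIs in C6W and 0.881% in S6W; cells at or below it had 1.40% in C6W and 2.08% in S6W. The gap was smaller in S2D, with 1.48% above the median and 1.82% at or below it, and reversed in C2D, with 0.728% above and 0.414% at or below. Ribosomal protein genes moved with Clps: rho between Clps and their share of UMIs was 0.461 in C6W and 0.704 in S6W, and -0.357 in C2D, against 0.796 in S2D. Transcript length also moved with the difference between libraries: over 35 digestive genes, rho between length and the log2 ratio of the share was -0.628 for C6W over S6W and -0.455 for C2D over S2D, and -0.00688 for S6W over S2D (34 genes). Clps has the shortest and Cel the longest transcript of the 5. The part of RNA quality or length in the Clps and Cel values was not tested.

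**Figure D4:**
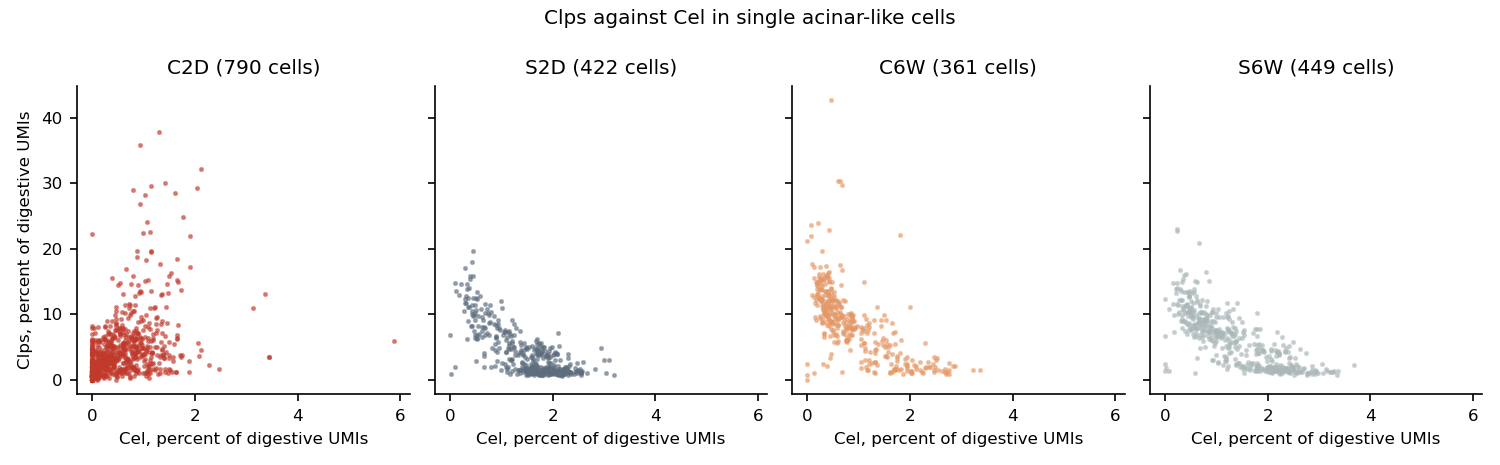
Clps against Cel, each as a percent of digestive UMIs, in single acinar-like cells of the 4 libraries. In S2D, C6W and S6W the points run from high Clps with low Cel to low Clps with high Cel (rho -0.649, -0.709 and -0.792 over other digestive UMIs), and in C2D they do not (0.583).

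All 5 genes also appeared as free RNA, released RNA that enters the droplets of cells that do not make them. Acinar-like cells held between 70.7% (Clps in S2D) and 97.4% (Cel in S6W) of the UMIs of a member in its library, and other cells held between 1.48 and 15.3%. T-like cells carried 0.274 Pnlip UMIs per cell in C2D (0.179 to 0.401), against 12.2 (11.7 to 12.7) in S2D, and 8.43 in C6W, against 8.64 in S6W. Clps was at 2.48 per T-like cell in C2D, against 11.3 in S2D, and at 10.7 in C6W, against 8.62 in S6W, while Pnliprp1 was at 1.84 in C2D, against 2.82 in S2D, and at 1.83 in C6W, against 1.24 in S6W. Pnlip UMIs were in 13.7% of C2D T-like cells, against 100% of S2D T-like cells, at median depths of 5375 UMIs in C2D and 6085 in S2D. A Pnlip UMI in a non-acinar cell of S2D, C6W or S6W is therefore no sign of expression.

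The free RNA of C2D carried the same reversed order. Over all cells that were not acinar-like, Pnliprp1 gave 4.78 UMIs per Pnlip UMI (4.59 to 4.98) in C2D, against 0.271 (0.265 to 0.277) in S2D, and 0.185 in C6W, against 0.189 in S6W. The C2D ratio was above 1 in T-like (6.73), fibroblast-like (7.52), macrophage-like (4.15) and ductal-like cells (16.6). In each of 6 non-acinar classes with at least 50 cells in both libraries the Pnlip share of digestive UMIs was lower in C2D than in S2D, by log2 ratios of -4.89 to -2.80, and the Pnliprp1 share was higher, by 0.19 to 1.41. The remaining members did not follow their acinar-like ratios in this way. Cel (acinar-like -1.41) was lower in 3 classes and higher in 3, from -1.16 to 0.30. The intervals of the 3 higher classes spanned no change: T-like -0.26 to 0.82, NK-like -1.07 to 1.035 and dendritic-like -0.33 to 0.39. Clps (acinar-like 0.11) was lower in 5 of 6, from -1.02 to 0.21. Its intervals in NK-like (-0.47 to 0.25) and dendritic-like cells (-0.26 to 0.03) spanned no change. Pnliprp2 (acinar-like -0.17) was higher in 5 of 6, from -0.30 to 1.77. Its T-like interval (-1.09 to 1.13) spanned no change, and that of the highest class, NK-like, was 0.50 to 2.94. Free RNA comes from the cells of its own library, so these are further readings of the same libraries and not replicates.

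In C2D the share in other classes was above the acinar-like value in 5 of 7 classes for Clps, 6 of 7 for Cel, 4 of 7 for Pnliprp2, 2 of 7 for Pnlip and 1 of 7 for Pnliprp1. Most of these classes had intervals that overlapped the acinar-like one. Those that lay above it were macrophage-like cells for Clps (5.32 to 5.50%), Cel (0.686 to 0.752%), Pnliprp2 (0.387 to 0.437%) and Pnlip (0.862 to 0.934%). Dendritic-like cells did so for Cel (0.731 to 1.02%). Clps took 4.69 to 8.95% of digestive UMIs in the 9 non-acinar classes of S2D, all above the 4.37% of its acinar-like cells, and 7.80 to 11.9% in the 6 classes of S6W, all above 5.17%. In C6W it took 7.16 to 13.7%, above the acinar-like 7.29% in 4 of 5 classes. Cel took 0.465 to 0.819% in the classes of C6W and 0.593 to 0.914% in those of S6W, all below the acinar-like 1.10% of C6W and 1.77% of S6W, and in S2D 8 of 9 classes were below 1.58%, the exception being macrophage-like cells at 1.61%. Pnliprp2 and Pnliprp1 were likewise below their acinar-like share in every class of C6W and S6W and in 8 of 9 classes of S2D. Pnlip lay close to its acinar-like share, at 5.99 to 7.43% in S2D, 6.28 to 7.43% in C6W and 7.23 to 8.07% in S6W. In most classes, free RNA of those libraries was thus richer in Clps and poorer in Cel, Pnliprp1 and Pnliprp2 than the acinar-like cells analysed. For Cel and Pnliprp2 this is also the direction in acinar-like cells with high Clps of these libraries. The proportions were not the same in every class of a library: in C6W Clps took 7.16% in B-like, 12.9% in macrophage-like and 13.7% in ductal-like cells. With free RNA subtracted, the summed log2 ratio at 2 days was -4.07, where it was -4.08 without.

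**Figure D5:**
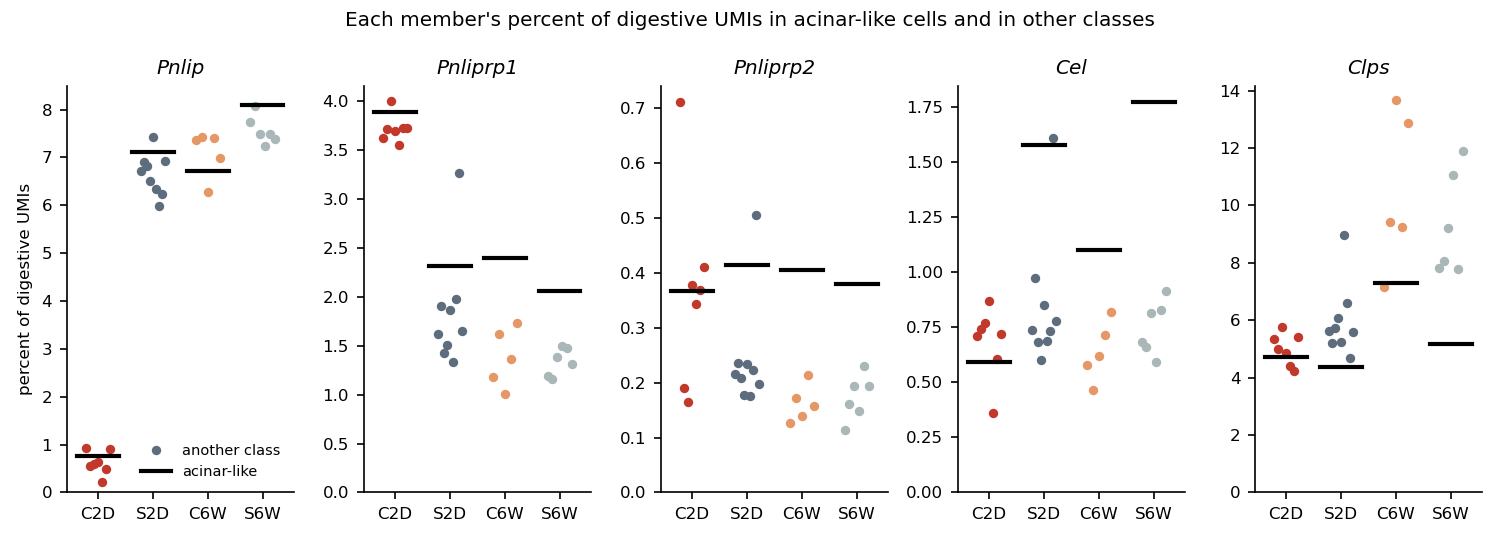
Percent of digestive UMIs taken by each gene in acinar-like cells (black bar) and in every other class with at least 50 cells (points) of each library; the vertical scales differ between genes. Pnlip points of C2D lie at 0.214 to 0.924%, below all points of the other libraries, and Clps points of S2D and S6W lie above the bar.

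Other genes of digestion, lipid handling and acinar identity were counted by list. Of the 33 other digestive genes in the files, 30 had at least 100 UMIs at 2 days, and 26 were called lower and 3 higher (Prss1, a trypsinogen, 1810009J06Rik and Gm5771) in C2D over S2D, with a median of -4.01, next to -3.64 for the members and 0.22 for all genes. Pla2g1b, the pancreatic phospholipase, had a log2 ratio of -4.67 and Ctrb1, a chymotrypsinogen, -2.36, so the members' range from -6.68 to -2.73 spans much of the digestive list. Of 11 other genes of lipid hydrolysis, 6 could be compared: Pla2g1b and Lpl, lipoprotein lipase (-1.70), were called lower, Plin2, a lipid droplet coat protein, higher (398 UMIs in C2D and 1 in S2D, a log2 ratio of 5.32 with an interval of 2.83 to 10.63), and Pnpla2, Mgll and Abhd5 neither. Of 12 acinar regulators and secretagogue receptors, 8 could be compared and 3 were called lower, Bhlha15 at -2.30, Rbpjl at -1.46 and the cholecystokinin receptor gene Cckar at -1.03, while Ptf1a was at -0.65; the median was -0.78. These calls compare with 12.3% of all genes lower and 22.8% higher. Under plain CPM, where 92.8% of all genes were called higher, 0 of the 8 regulators were called lower and 6 higher, with a median of 1.65, and 1 of the 6 lipid hydrolysis genes was called lower and 4 higher. Bhlha15 stood at 0.13, Rbpjl at 0.97, Cckar at 1.40, Lpl at 0.73 and Ctrb1 at 0.07 on that scale, while 21 of the 30 digestive genes were called lower and 6 higher. Of 11 duct and metaplasia genes, 7 of the 9 compared were called higher under TMM, where 22.8% of all genes were, with a median of 2.28, among them Krt19 at 3.1 and Cldn4 at 5.07. At 6 weeks 4 of 30 other digestive genes were called lower (Amy1, Amy2a2, Amy2a3 and Amy2a5, copies whose reads can be split between them), 1 was higher (1810009J06Rik, with 187 UMIs in C6W and 3 in S6W), and the median was -0.66, next to -0.49 for the members.

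By the pattern of log2 CPM over the acinar-like cells of the 4 libraries, centred on its mean, the genes nearest to each member among 5749 were found by Euclidean distance. Nearest to Pnlip were Hamp2 (distance 0.287), Pdia2 (0.613), a pancreatic disulfide isomerase, and Amy2a3 (0.767), a copy of pancreatic amylase. Nearest to Cel were Amy2a4 (0.347), Ctrl (0.399), a chymotrypsin-like protease, and Slc39a5 (0.466), a zinc transporter. Nearest to Pnliprp2 were Klk1b5 (0.0820), Klf15 (0.1003) and Klk1 (0.116), a tissue kallikrein. Nearest to Pnliprp1 were Os9 (0.0933), Lman1 (0.109) and Qsox2 (0.152), the first a factor of protein quality control in the endoplasmic reticulum and the second a cargo receptor that leaves it; in CPM all 3 were nearly level over the 4 libraries, but under TMM their log2 ratios in C2D over S2D were -2.84 for Os9, -2.80 for Lman1 and -2.53 for Qsox2, beside -2.73 for Pnliprp1. Nearest to Clps were Nucb2 (0.130), Aldh6a1 (0.206) and Camk2b (0.239). With 4 points, of which C2D stands apart, many genes lie close to each other by this measure.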

How the data were processed

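The deposited files hold raw counts (UMIs of each gene in each barcode), with 2623 to 5433 barcodes a library; per the submitters' processing notes the tools were Cell Ranger 3.0.2 and FastQC, with the mm10 build. Whether reads were counted by strand is not given in the sources used here. Groups were taken from the sample labels. A barcode stayed in when it held 500 or more UMIs from 200 or more genes and no more than 20% of them were mitochondrial. Scrublet (scanpy 1.11.5) called 19 doublets in C2D (0.408%), 38 in S2D, 32 in C6W and 15 in S6W, which were left out; the C2D share is low for its cell number, and an alternative left out doublets at the expected rate. Counts were scaled to 10000 UMIs per cell and logged; Leiden clustering at resolution 1 then ran over all libraries together, on 15 neighbours in 40 principal components of 2000 variable genes. Of 29 clusters, 28 were named from marker lists and 1 stayed unnamed; names mean marker-like.

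UMIs were summed over acinar-like cells of a library. Ratios used TMM-adjusted totals (edgeR 4.0.16) with an exact conditional binomial interval; levels have exact Poisson and shares Clopper-Pearson intervals, all at 95%. No p-value was computed, since each group is 1 library. Only genes whose UMIs in the pair of libraries came to 100 or more were compared, and a gene counted as lower or higher at 2-fold. Digestive genes were the 5 members and 33 of 35 other listed genes; the remaining 2 were not analysed here. The named genes were the 5 members, list genes where their list is counted, and the 3 genes nearest to each member in 4-library pattern (0.5 UMI added). The 5 members, the gene lists and the alternatives were chosen with earlier results of these data known. Alternatives were the scaling (plain CPM, DESeq2 1.42.0, totals without digestive genes, UMIs per cell), count minimum, cell filter, thinning to 1000 UMIs, free RNA (digestive UMIs per T-like and B-like cell subtracted), doublets, clustering and the control library. Ratios and intervals were tested on simulated sums in which equal numbers of less abundant genes were raised and lowered. The simulation held no fall of the most abundant genes, so it does not cover the scaling of the 2-day ratios. Python 3.11.15 and R 4.3.3 were used; coordinates are from GENCODE vM21.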

Additional observations from a re-analysis of the deposited data

Results flagged for a closer look

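The share of digestive UMIs taken by the 5 genes together had ratios of opposite sign at the 2 times: its log2 ratio was -0.61 in C2D over S2D and 0.0353 in C6W over S6W. The same held for Pnliprp2, at -0.17 in C2D over S2D and 0.0899 in C6W over S6W. For Pnliprp2 the opposite sign was lost at 6 weeks with cells thinned to 1000 UMIs (-0.19, and -0.48 at 2 days) and with S2D as the control (-0.03). With 1 library a group, the difference between the times was not tested. Between the saline libraries, S6W over S2D gave 0.15 for the sum and -0.12 for Pnliprp2, larger in size than both 6-week values.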

How the results depend on the processing

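No paired analysis was possible because each group is 1 library and every title carries the same replicate number. The summed log2 ratio at 2 days (-4.08) was -1.66 under plain CPM, -1.67 per cell, -3.77 with totals without digestive genes, -4.11 with DESeq2 size factors, -4.11 with cells of at least 1000 UMIs, -2.96 with cells thinned to 1000 UMIs, -4.07 with free RNA subtracted, -3.38 with doublets kept, -3.94 when clustered without digestive genes and -3.95 at Leiden resolution 0.5. At 6 weeks (-0.54) it was -0.0262 under plain CPM, -0.78 per cell, -0.37 with totals without digestive genes, -0.57 with DESeq2, -0.0887 thinned, -0.56 with free RNA subtracted, -0.74 with doublets kept, -0.56 clustered without digestive genes, -0.59 at resolution 0.5 and -0.38 with S2D as the control. Members called lower at 2 days were 3 under plain CPM, where 0.956% of genes were, and 3 per cell, where 0.976% were. At 6 weeks they were 0 under plain CPM, where 0.272% of genes were, and 0 thinned, where the share of all genes was not computed. They were 2 (Cel and Pnlip) per cell, where 5.44% of genes were, and with doublets kept, where 3.0% were. The 2-day share ratio (-0.61) was -0.54 thinned, and the 6-week one (0.0353) was 0.0708 thinned and 0.18 with S2D as the control.

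Alternatives chosen after the data were seen gave at 2 days a sum of -4.10 with doublets left out at the expected rate (173 in C2D), -2.81 with the Reg3b cluster alone and -6.33 with the keratin cluster alone, and share ratios of -0.46 and -1.34 with these clusters and -0.63 with Gm2663 among the digestive genes. The summed ratio stayed below 0 under each of these settings, whereas the 6-week share ratio is above 0, and C6W over S2D was 0.12 under plain CPM. Single genes changed sign: at 6 weeks, as ratios of totals or per cell, Clps ran from -0.32 to 0.43, Pnliprp1 from -0.60 to 0.16 and Pnliprp2 from -0.73 to 0.03, whereas Pnlip (-1.09 to -0.33) and Cel (-1.51 to -0.71) stayed below 0. At 2 days the share ratio of Clps ran from -0.96 to 0.35 and that of Pnliprp2 from -0.48 to 0.07; at 6 weeks that of Pnliprp2 ran from -0.19 to 0.09. The cause of these shifts was not tested. With 1 library a group, none of these values carries an error between animals. The lowest count of a member in the acinar-like cells of a library was 12453 UMIs (Pnliprp2 in C6W), so counting error was small. With thinned cells the summed log2 ratio was -2.96 at 2 days, against -4.08 unthinned, and -0.0887 at 6 weeks, against -0.54. The part of depth per cell in these values was not tested.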
